A study of Homo sapiens with 32 samples.

Results

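LNCaP, a human prostate cancer cell line that depends on androgens, was given CSN5i-3 at 5 µM or its solvent DMSO, and its total RNA was extracted, sequenced with Illumina libraries and counted per gene. The comparison uses 4 of the 32 libraries of a series on CSN5 inhibition in prostate cancer lines, 2 with CSN5i-3 and 2 with DMSO, chosen by the line and treatment in their labels and held in a deposited table of their own. The table lists 21549 gene symbols, and the 18238 that passed a filter on low counts were tested. The cells came from ATCC, carry no transgene or shRNA that the labels mention, and were kept in standard culture, and the sources used here do not give the hours of exposure. LNCaP is 1 line from a lymph node metastasis, so the values describe this line and not prostate cancer in general. Beside it, 4 libraries of LNCaP carrying shCSN5 or a scramble shRNA and 4 libraries of 22Rv1, a castration-resistant prostate cancer line, with CSN5i-3 at 5 µM or DMSO, are used further down to show where the response differed. The question the design sets is which transcripts change when the enzyme is blocked by a small molecule.

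CSN5, encoded by COPS5, is the metalloprotease of the COP9 signalosome, and it cuts the small modifier NEDD8 from cullins, the scaffolds of the largest family of ubiquitin ligases. CSN5i-3 binds the catalytic site of CSN5, so that cullins stay modified, and some substrate receptors are then destroyed by their own ligase while certain substrates accumulate. Cullin ligases are known to control the licensing factor CDT1, the cell cycle inhibitors p21 and p27 and the antioxidant regulator NRF2, which is held low by the CUL3 adaptor KEAP1. Luminal prostate cells are known for secreted kallikreins such as KLK3 (prostate-specific antigen), whose genes are induced by androgens.

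The libraries held 39819688 and 43756910 counts with CSN5i-3, against 37685220 and 40638334 with DMSO. Levels below are CPM, counts brought to a common scaled library total, which are not divided by transcript length and are therefore compared within a gene. Changes are log2 fold changes, CSN5i-3 minus DMSO, ± SE with n = 2 libraries per group. A gene is called higher or lower at an adjusted p under 0.05 in edgeR's quasi-likelihood test, and "rose" and "fell" are used of called genes. Of the genes tested 9598 (52.6%) were called, 4772 (26.2%) higher and 4826 (26.5%) lower, which is the background for every count of list members given here; without CSN5i-3 replicate 1 or 2 the count was 6366 or 6360. At least a 2-fold change was reached by 1667 genes (9.14%) upward and 1776 (9.74%) downward, and 263 genes upward and 291 downward reached 8-fold. In 77.5% of the genes tested both libraries of one group lay above both of the other, so that pattern sets no gene apart. The replicates were closer in the CSN5i-3 pair than in the DMSO pair (a chi-square per gene of 3.08 against 19.0, where counting error alone gives about 1). Transcripts of the mitochondrial genome took 7.31% and 7.47% of counts with CSN5i-3 and 5.99% and 5.54% with DMSO, and their part in the other results was not tested. Whether the replicates came from separate cultures is not in the labels, and the p values cover the spread between these libraries alone, which may be technical. In bulk RNA, fewer cells of a kind or in a phase of the cycle and less RNA per cell cannot be told apart. Where a count is given without either library of a group, each was left out in turn and both gave that count.

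**Figure D1:**
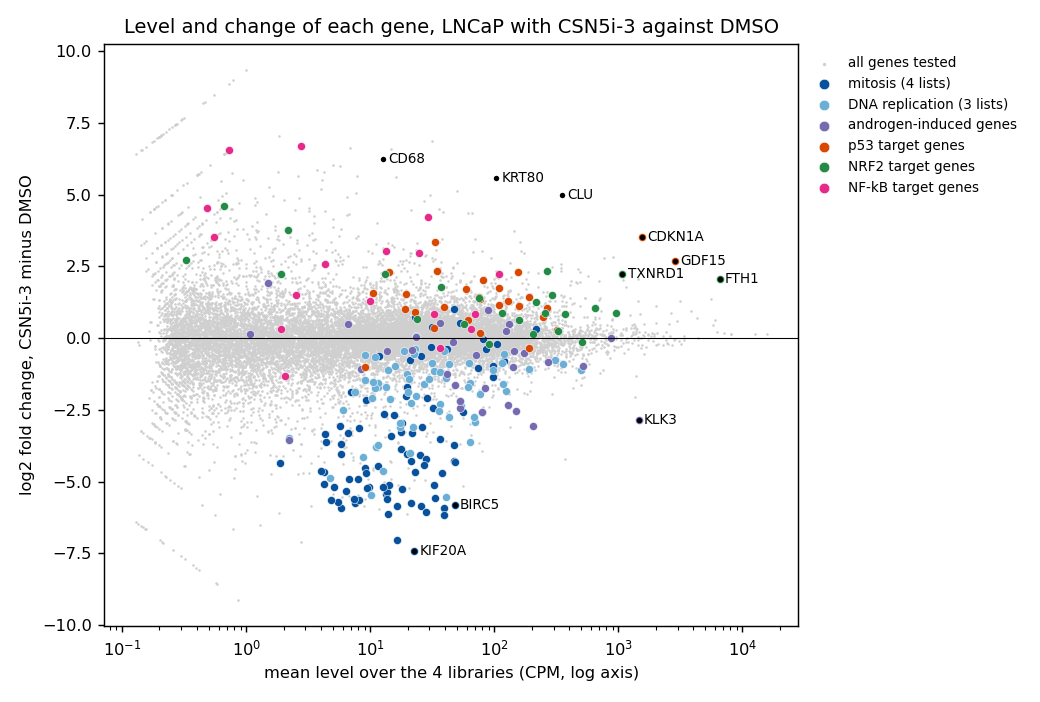
Each point is 1 of 18238 genes, with its mean level over the 4 libraries in CPM on a log axis and its log2 fold change (CSN5i-3 minus DMSO). Members of the mitosis lists reach down to KIF20A at -7.41, and p53 and NRF2 target genes lie mostly above 0 across the range of levels.

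The COP9 signalosome itself changed little at the transcript level. COPS5, the gene of the inhibited enzyme, stood at 48.9 and 54.4 CPM with CSN5i-3, against 49.99 and 45.98 CPM with DMSO, a difference of 0.11 ± 0.087 (adjusted p = 0.33), and its groups overlapped. The inhibitor acts on the protein, so this level checks no label. Of the 10 subunits tested COPS4 was called higher (0.29) and COPS3 (-0.31) and COPS6 (-0.31) lower, and each of these 3 calls was lost when either CSN5i-3 library was left out (adjusted p = 0.067 to 0.18), while 4 subunits were higher without DMSO replicate 1, COPS5 among them (0.17, adjusted p = 0.023), and 3 without DMSO replicate 2. Among 10 cullins and RING subunits 2 were called higher and 1 lower, all by less than 2-fold, and none was called without either CSN5i-3 library (2 lower without either DMSO library). Of 15 factors that attach NEDD8 or exchange substrate receptors 6 rose and 4 fell (2 lower without either CSN5i-3 library, and 3 higher without CSN5i-3 replicate 2), with a median change of 0.13. DCUN1D2, one of the co-ligases that promote cullin neddylation, rose by 0.76 ± 0.091, and UBE2F, a NEDD8-conjugating enzyme paired with CUL5, rose by 0.69 ± 0.075. CAND1, the exchange factor that swaps substrate receptors on unmodified cullins, fell to 101 and 103 CPM with CSN5i-3, against 146 and 131 CPM with DMSO (-0.44 ± 0.075).

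Of the substrate receptors and adaptors 34 were tested, 6 rose and 12 fell (3 higher without either CSN5i-3 library, 11 without DMSO replicate 1), with a median of -0.03. The decreases of CDC20 and DTL, which act in the cell cycle, were the largest of the list, followed by that of RHOBTB3, a CUL3 adaptor, at -2.44 ± 0.17. CDC20, the mitotic activator of the anaphase-promoting complex, stood at 1.26 and 1.303 CPM with CSN5i-3, against 74.8 and 80.1 CPM with DMSO. DTL, the CUL4 receptor that targets CDT1 and p21, was at 0.863 and 0.971 CPM with CSN5i-3, against 24.6 and 21.4 CPM with DMSO. SKP2, the F-box protein that targets p27, stood at 10.1 and 10.8 CPM in the CSN5i-3 libraries and 30.2 and 28.4 CPM in the DMSO libraries, a change of -1.49 ± 0.090. CKS1B, the cofactor of SKP2, changed by -1.94 ± 0.085, and FBXO5, an inhibitor of the anaphase-promoting complex, by -1.96 ± 0.11. In these 5 genes both CSN5i-3 libraries lay below both DMSO libraries. On the other side FBXO32, an F-box protein known from muscle atrophy, rose by 1.41 ± 0.12 to 11.9 and 10.8 CPM, against 4.02 and 4.48 CPM with DMSO, and FBXW7, the receptor for cyclin E and MYC, rose by 0.73 ± 0.10.

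The inhibitors of cyclin-dependent kinases moved both ways, with the gene of p21 furthest. CDKN1A, which encodes p21, was at 2901 and 2812 CPM with CSN5i-3, against 239 and 259.6 CPM with DMSO, an increase of 3.52 ± 0.065 (adjusted p = 3.8e-07), and it was among the 10 largest rises in CPM of all called genes. CDKN2B, which encodes the CDK4 inhibitor p15, stood at 9.65 and 10.7 CPM with CSN5i-3, against 1.499 and 1.88 CPM with DMSO (2.58 ± 0.15). CDKN1B, which encodes p27, rose less, with 81.7 and 84.6 CPM in the CSN5i-3 libraries and 59.7 and 61.1 CPM in the DMSO libraries (0.46 ± 0.069, adjusted p = 0.0013). CDKN2C, which encodes p18, went the other way, at 2.59 and 2.96 CPM with CSN5i-3, against 17.4 and 17.9 CPM with DMSO (-2.66 ± 0.12). Of the 7 CDK inhibitors 3 rose and 2 fell (1 lower without either CSN5i-3 library, 4 without DMSO replicate 1).

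Of 28 p53 target genes 25 rose and 2 fell (1 lower without CSN5i-3 replicate 2), against 26.2% and 26.5% of all genes, with a median of 1.33, against 0.004 for all genes tested. GDF15, a secreted stress cytokine, was at 5237 and 4654 CPM with CSN5i-3, against 601 and 924 CPM with DMSO (2.70 ± 0.19). MDM2, the ubiquitin ligase of p53, was at 278 and 283 CPM with CSN5i-3, against 107 and 99.9 CPM with DMSO (1.44 ± 0.065). TP53I3, a quinone oxidoreductase, stood at 62.6 and 58.2 CPM with CSN5i-3, against 5.62 and 6.25 CPM with DMSO (3.35 ± 0.098). The DMSO libraries lay below the CSN5i-3 libraries in each of these, and GDF15 had the widest spread between the DMSO libraries among them. FAS, a death receptor, rose by 2.29 ± 0.11, and SESN2, a sestrin that restrains growth signalling, by 1.12 ± 0.073. RRM2B, the p53-induced small subunit of ribonucleotide reductase, rose to 162 and 172 CPM, against 52.7 and 46.1 CPM with DMSO (1.76 ± 0.087). Against the majority, TNFRSF10C, a decoy receptor for TRAIL, changed by -0.99 ± 0.10. Among 20 genes of the BCL2 family and caspases 13 rose and 2 fell (median 0.60). BMF, a BH3-only killer, rose by 1.36 ± 0.082, and BCL2L1, which encodes the survival protein BCL-XL, rose to 388 and 377 CPM with CSN5i-3 against 137 and 142 CPM with DMSO (1.46 ± 0.060). HRK, another BH3-only killer, was at 0.105 and 0.308 CPM with CSN5i-3, against 1.32 and 0.978 CPM with DMSO, and BCL2L11, which encodes BIM, changed by -0.72 ± 0.083.

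**Figure D2:**
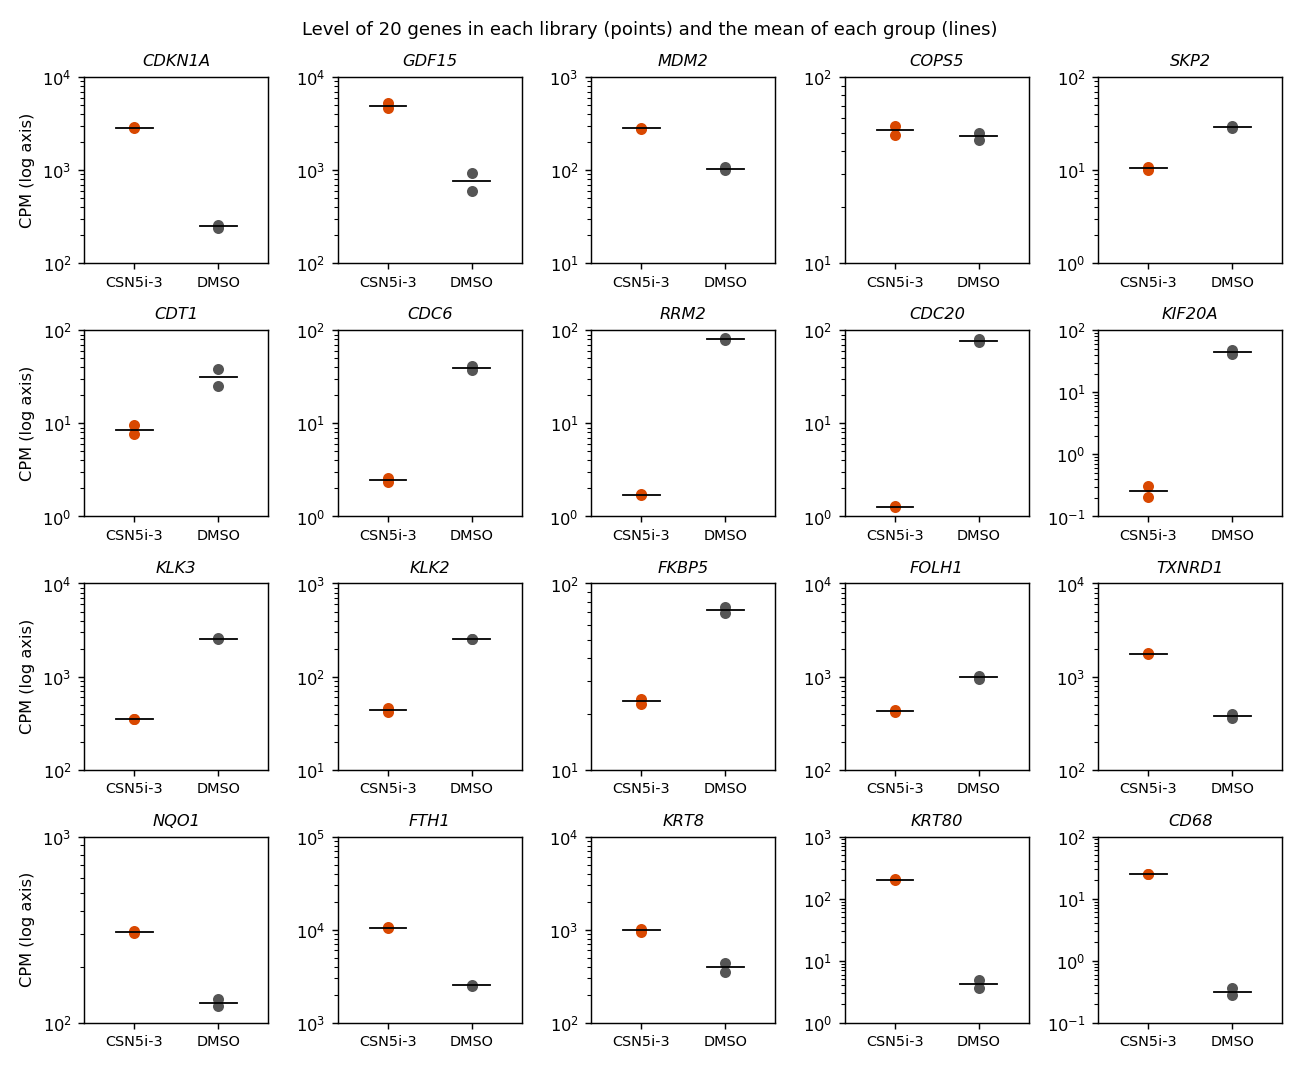
Levels of 20 genes in CPM on log axes, 1 point per library and a line at each group's mean, with CSN5i-3 left of DMSO. The 2 libraries of a group lie close together in nearly every panel, and COPS5 is the 1 gene of the 20 whose groups overlap. Groups lay apart in 77.5% of all genes tested.

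Cyclins and the regulators of the E2F programme fell. Of 16 cyclins and cyclin-dependent kinases tested 12 fell and 1, CCNG1, was called higher (none without either CSN5i-3 library), with a median of -1.39. The mitotic cyclins moved furthest, with CCNA2 at 1.12 and 0.995 CPM with CSN5i-3, against 41.1 and 38.5 CPM with DMSO (-5.23 ± 0.12). CCNB2 was at 1.54 and 1.92 CPM with CSN5i-3, against 54.7 and 51.7 CPM with DMSO (-4.93 ± 0.12). CDC25C, the phosphatase that activates CDK1, stood at 0.6798 and 0.853 CPM in the CSN5i-3 libraries and 14.5 and 12.7 CPM in the DMSO libraries. CCND1, the G1 cyclin, changed by -0.96 ± 0.066 and CCNE2 by -0.75 ± 0.15, while CCNE1 was at 12.2 and 10.7 CPM with CSN5i-3, against 13.4 and 13.98 CPM with DMSO and was not called (adjusted p = 0.078), although it passed without DMSO replicate 1 (-0.29, adjusted p = 0.013). Of 20 E2F, pocket protein and MuvB regulators 15 fell and 3 were called higher (0 without CSN5i-3 replicate 1, 1 without CSN5i-3 replicate 2). MYBL2, which encodes B-MYB, was at 2.95 and 3.22 CPM with CSN5i-3, against 100.03 and 119 CPM with DMSO. FOXM1, the transcription factor of late mitotic genes, stood at 10.1 and 9.31 CPM with CSN5i-3, against 148 and 152 CPM with DMSO. E2F1, the activator of the entry into S phase, was at 6.48 and 5.52 CPM in the CSN5i-3 libraries and 54.9 and 60.8 CPM in the DMSO libraries (-3.27 ± 0.11). E2F4, a repressive member, stood at 82.3 and 78.04 CPM with CSN5i-3, against 57.1 and 61.8 CPM with DMSO. E2F6, another repressor, was at 15.9 and 16.9 CPM with CSN5i-3, against 12.99 and 12.04 CPM with DMSO. Both were called higher, and both calls were lost without CSN5i-3 replicate 1 (adjusted p = 0.0598 and 0.0585), that of E2F6 also without CSN5i-3 replicate 2 (adjusted p = 0.119).

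Genes that license origins and copy DNA fell. Of 18 origin licensing genes 17 fell and none rose (median -2.09), and ORC4 was not called. CDC6, which loads the helicase on origins, was at 2.33 and 2.61 CPM with CSN5i-3, against 41.5 and 37.1 CPM with DMSO (-3.99 ± 0.12). ORC1, the largest subunit of the origin recognition complex, stood at 0.967 and 0.924 CPM with CSN5i-3, against 16.8 and 16.6 CPM with DMSO (-4.14 ± 0.13). CDT1, the loading factor that a CUL4 ligase destroys in S phase, was at 9.49 and 7.67 CPM in the CSN5i-3 libraries and 25.1 and 38.4 CPM in the DMSO libraries (-1.89 ± 0.21, adjusted p = 3.2e-04). MCM4, a subunit of the helicase, changed by -2.75 ± 0.074. All 30 replication fork genes tested fell (median -1.66), among them CDC45, part of the active helicase, at -4.63 ± 0.12 and FEN1, the flap nuclease, at -2.74 ± 0.079. Of 17 nucleotide supply genes 15 fell and 1 rose (2 without DMSO replicate 1). RRM2, the small subunit of ribonucleotide reductase in S phase, was at 1.699 and 1.73 CPM with CSN5i-3, against 82.8 and 78.3 CPM with DMSO (-5.55 ± 0.10), the opposite of its p53-induced counterpart RRM2B. TK1, thymidine kinase, stood at 10.04 and 9.24 CPM with CSN5i-3, against 103 and 131 CPM with DMSO. Of 50 replication-dependent histone genes 27 could be tested, and 9 rose and 5 fell (3 lower without either CSN5i-3 library, 14 higher without DMSO replicate 2), with H2BC4 at 1.33 ± 0.13, and H1-5, a linker histone, among those lower. These transcripts lack poly(A) tails for the most part, and the sources used here do not say how RNA was selected for the libraries. Of the histone variants and chaperones 17 of 19 were lower and none higher (median -1.12), ASF1B, a chaperone of new histones, at 1.39 and 1.42 CPM with CSN5i-3, against 42.9 and 44.4 CPM with DMSO among them.

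The genes of mitosis held the deepest decreases. Of 23 mitotic entry and checkpoint genes 21 fell and 2 rose (1 without either CSN5i-3 library; median -4.65), all 25 kinetochore and centromere genes fell (median -4.04), 17 of 20 spindle genes fell and 3 rose (1 without CSN5i-3 replicate 2; median -4.68), and 21 of 22 genes of condensin, cohesin and cytokinesis fell and none rose (median -2.70). KIF20A, a kinesin of the central spindle, had the largest decrease under the naming rule, at 0.209 and 0.308 CPM with CSN5i-3, against 47.3 and 42.2 CPM with DMSO (-7.41 ± 0.17, adjusted p = 4.6e-07). DLGAP5, a spindle assembly factor, followed at 0.261 and 0.237 CPM with CSN5i-3, against 34.1 and 31.4 CPM with DMSO (-7.02 ± 0.15). TOP2A, the topoisomerase that untangles chromosomes, stood at 1.26 and 0.924 CPM in the CSN5i-3 libraries and 81.5 and 72.8 CPM in the DMSO libraries. CENPF, a kinetochore protein, had 0.811 and 0.829 CPM in the CSN5i-3 libraries and 57.1 and 53.1 CPM in the DMSO libraries. With CSN5i-3 each of these 4 genes was near or below 1 CPM in both libraries. The remaining 11 of the 15 largest decreases were KIF4A, FAM83D, GTSE1, NUF2, CDC20, UBE2C, CEP55, HMMR, BIRC5, NEK2 and KIF2C, with changes from -6.13 to -5.74, and all are known parts of mitosis or its regulation. BIRC5, which encodes survivin, was at 1.59 and 1.73 CPM with CSN5i-3, against 93.3 and 94.7 CPM with DMSO. MKI67, the proliferation marker, was at 4.73 and 4.48 CPM with CSN5i-3, against 93.8 and 89.5 CPM with DMSO (-4.31 ± 0.090). The few members called higher act in transport or hold the cycle back. KIF13B, a transport kinesin, changed by 0.75 ± 0.11. KIF3A, another transport kinesin, was called at 0.38, a call lost without either CSN5i-3 library (adjusted p = 0.0603 and 0.108). WEE1, the kinase that holds CDK1 inactive, rose to 64.03 and 62.1 CPM, against 32.9 and 29.3 CPM with DMSO (1.02 ± 0.085), and FZR1, the G1 activator of the anaphase-promoting complex, was called at 0.53, which was lost without either CSN5i-3 library (adjusted p = 0.071 and 0.066).

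The promoters of these groups were searched for short motifs, since the members moved together, and 5 are printed to show where the letters stand, each from the list member with the smallest adjusted p that held the motif of its list. Sequences are RefSeq's (GRCh38.p14), 250 bases before to 50 after the gene start, and the 7341 tested genes with 1 promoter entry were used. The motifs were TTTGAA or TTCGAA (the cell cycle homology region, CHR, bound by the MuvB complex), CCAAT (the NF-Y box), TTTNGCGC (an E2F site), TGACNNNGC (an antioxidant response element, ARE, bound by NRF2) and TGATGNAA (a CARE, bound by ATF4), each searched on both strands and counted on its own where matches of different motifs overlapped. Capitals mark each match to the motif for which the gene was chosen, and positions count from the gene start. DLGAP5 (chr14:55191536-55191835, minus strand) holds CHR matches starting at -138, -109 and 4, and CDC20 (chr1:43358731-43359030, plus strand) holds CHR matches at -178 and -65. CDC6 (chr17:40287629-40287928, plus strand) holds an E2F match at 8, GCLM (chr1:93909381-93909680, minus strand) holds an ARE at -34 and CHAC1 (chr15:40953221-40953520, plus strand) holds a CARE at -209.
DLGAP5: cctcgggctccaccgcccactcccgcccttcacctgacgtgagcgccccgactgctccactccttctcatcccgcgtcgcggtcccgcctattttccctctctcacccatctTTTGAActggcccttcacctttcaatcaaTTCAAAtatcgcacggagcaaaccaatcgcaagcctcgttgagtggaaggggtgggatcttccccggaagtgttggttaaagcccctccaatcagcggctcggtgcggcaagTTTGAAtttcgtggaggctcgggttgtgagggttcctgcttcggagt
CDC20: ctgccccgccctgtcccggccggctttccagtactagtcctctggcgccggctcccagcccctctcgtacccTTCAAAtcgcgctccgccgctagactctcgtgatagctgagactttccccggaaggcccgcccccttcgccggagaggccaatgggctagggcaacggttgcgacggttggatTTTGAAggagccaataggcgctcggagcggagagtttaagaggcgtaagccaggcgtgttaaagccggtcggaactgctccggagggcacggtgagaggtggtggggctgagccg
CDC6: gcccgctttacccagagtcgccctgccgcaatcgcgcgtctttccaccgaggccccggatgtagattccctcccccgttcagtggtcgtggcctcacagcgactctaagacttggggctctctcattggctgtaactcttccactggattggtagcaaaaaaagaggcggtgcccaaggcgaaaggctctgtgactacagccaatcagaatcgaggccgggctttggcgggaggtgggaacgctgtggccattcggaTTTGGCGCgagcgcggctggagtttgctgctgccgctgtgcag
GCLM: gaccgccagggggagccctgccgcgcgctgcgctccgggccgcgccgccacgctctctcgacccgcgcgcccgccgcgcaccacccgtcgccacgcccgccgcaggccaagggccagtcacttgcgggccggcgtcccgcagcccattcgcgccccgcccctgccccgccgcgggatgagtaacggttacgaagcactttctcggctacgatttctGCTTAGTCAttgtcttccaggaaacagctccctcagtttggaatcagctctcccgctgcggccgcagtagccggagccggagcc
CHAC1: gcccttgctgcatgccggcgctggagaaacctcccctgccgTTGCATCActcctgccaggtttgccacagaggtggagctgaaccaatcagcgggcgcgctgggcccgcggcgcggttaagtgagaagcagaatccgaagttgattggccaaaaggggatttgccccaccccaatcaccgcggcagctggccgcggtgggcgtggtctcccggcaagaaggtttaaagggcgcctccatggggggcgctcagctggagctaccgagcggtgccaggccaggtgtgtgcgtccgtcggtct

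The CHR was found in 44.7% of the 141 promoters of genes at least 8-fold lower, against 14.6% of all genes called lower, 8.9% of genes called higher, 9.2% of genes not called and 17.2% of all 22114 promoters of this length. By list it was found in 13 of 16 spindle, 8 of 11 mitotic entry, 11 of 18 kinetochore and 10 of 12 condensin, cohesin and cytokinesis promoters, but in 2 of 12 origin licensing and none of 20 replication fork promoters. The E2F motif had the other pattern, with 6 of 12 origin licensing and 6 of 20 replication fork promoters against 3.1% of all genes tested and 1.8% of all promoters. The NF-Y box was in 62.4% of promoters at least 8-fold lower and 38.3% of all tested. In the list of NRF2 target genes 3 of 13 promoters held an ARE, against 15.5% of all genes tested, and 1 of 10 promoters in the ATF4 list held a CARE, against 1.5%. A match says only that these letters are in this window.

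**Figure D3:**
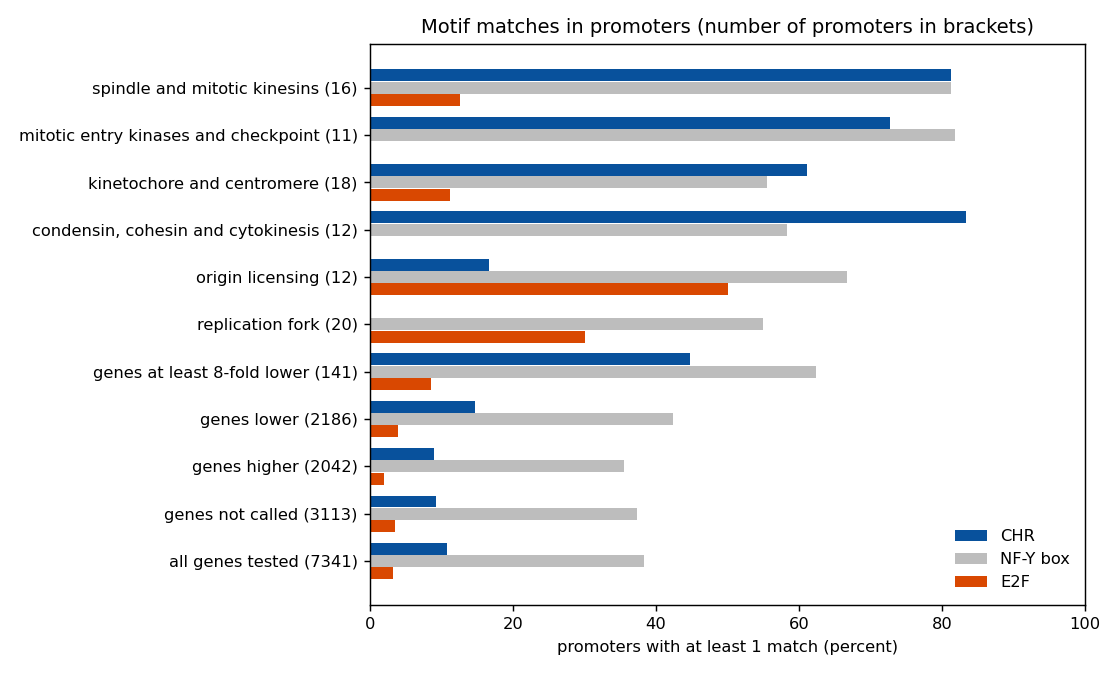
Bars give the percent of promoters with at least 1 match to the CHR, the NF-Y box or the E2F motif, with the number of promoters in brackets. CHR matches are in most promoters of the 4 mitosis lists and in 10.7% of all tested, and E2F matches are in 6 of 12 promoters of origin licensing genes.

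Genes of homologous recombination fell, and other repair genes moved both ways. Of 24 homologous recombination and Fanconi genes 23 fell and none rose (median -2.90), with BRCA1 at -3.19 ± 0.12 and FANCD2, the Fanconi protein that is marked with ubiquitin, at -3.28 ± 0.099. Of 19 excision and mismatch repair genes 11 fell and 4 rose (7 lower without CSN5i-3 replicate 2). XPC, a damage sensor and p53 target, rose to 147 and 155 CPM, against 67.4 and 67.5 CPM with DMSO, and POLH, a translesion polymerase and p53 target, rose by 1.10 ± 0.079. MGMT, the alkyltransferase that removes methyl groups from guanine, rose by 0.89 ± 0.10, while PARP1, which marks strand breaks, changed by -1.07 ± 0.063 and NEIL3, a glycosylase of replicating cells, by -5.85 ± 0.38. Of 16 damage checkpoint genes 10 fell and 4 were called higher (2 without CSN5i-3 replicate 1, 1 without CSN5i-3 replicate 2), the kinases CHEK2 at -1.73 ± 0.10 and ATR at 0.61 ± 0.099 among them.

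NRF2 target genes rose. Of 24 tested 21 rose and 1 fell, with a median of 1.15 (0 lower without either CSN5i-3 library, 2 without DMSO replicate 2). FTH1, the ferritin heavy chain, was at 10694 and 10375 CPM with CSN5i-3, against 2498 and 2570.1 CPM with DMSO (2.06 ± 0.048, adjusted p = 4.8e-07), the largest rise in CPM of any called gene. TXNRD1, thioredoxin reductase, stood at 1743 and 1795 CPM with CSN5i-3, against 392 and 359 CPM with DMSO (2.24 ± 0.063). NQO1, a quinone reductase often used as the marker of NRF2 activity, was at 305 and 309 CPM with CSN5i-3, against 134 and 123 CPM with DMSO (1.26 ± 0.066). SRXN1, which restores peroxiredoxins, rose by 1.49 ± 0.060, and AKR1C2, an aldo-keto reductase, was at 2.93 and 3.43 CPM with CSN5i-3, against 0.839 and 0.501 CPM with DMSO; the AKR1C genes are near-identical copies, so their counts may be shared between them. GCLM, the glutathione synthesis subunit whose promoter is printed for its ARE, rose by 1.41, and CHAC1, which breaks down glutathione and whose promoter is printed for its CARE, by 0.82. TXN, thioredoxin itself, was the member called lower (-0.21), and that call was lost without either CSN5i-3 library (adjusted p = 0.181 and 0.243).

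Other stress programmes moved in part. Of 22 ATF4 target genes 12 rose and 6 fell (median 0.39). PPP1R15A, which encodes the phosphatase subunit GADD34, rose by 2.81 ± 0.096, and ATF3, a stress transcription factor, rose to 489.9 and 502 CPM, against 90.4 and 85.4 CPM with DMSO. The 6 that fell included the enzymes of serine synthesis, PHGDH at 482 and 469.7 CPM with CSN5i-3, against 978 and 1062 CPM with DMSO and PSPH at -0.67 ± 0.067, and asparagine synthetase, ASNS, at -0.45 ± 0.059. Of 19 endoplasmic reticulum chaperone genes 5 rose and 8 fell, with HSPA5, the chaperone BiP, at 0.67 ± 0.051 and MANF, a secreted stress factor, at -1.18 ± 0.070, and a median of -0.13. Of 14 cytosolic heat shock genes 6 rose and 2 fell (2 and 1 without either CSN5i-3 library, 4 lower without DMSO replicate 2, 3 and 4 on library totals without TMM), HSPB1, a small heat shock protein, most of all (1.39 ± 0.19). Of 31 proteasome subunit genes 7 were called higher and 2 lower, with a median of 0.05 and a smaller share called than among all genes. Without either CSN5i-3 library 1 was higher and none lower, 11 were higher without DMSO replicate 1, 5 were lower without DMSO replicate 2, and on library totals 3 were higher and 7 lower. Genes of autophagy and the lysosome rose more widely, 18 of 24 with 1 lower (median 0.60). SQSTM1, the autophagy receptor p62 and an NRF2 target, was at 1816 and 1783 CPM with CSN5i-3, against 493 and 548 CPM with DMSO (1.79 ± 0.066), WIPI1, an early autophagy protein, rose by 1.72 ± 0.082 and NPC1, which exports cholesterol from lysosomes, by 1.61 ± 0.073. Of 15 V-ATPase subunits, which acidify the lysosome, 12 rose and none fell (1 lower without either DMSO library; median 0.61), with ATP6V0B at 0.93 ± 0.090 and ATP6V1G1 at 0.74 ± 0.069.

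Most of the genes known to be induced by androgens fell. Of 30 androgen-induced genes tested 20 fell and 6 rose (median -0.71). KLK3 had the largest drop in CPM of any called gene, at 353 and 351 CPM with CSN5i-3, against 2523 and 2598 CPM with DMSO (-2.86 ± 0.053, adjusted p = 3.8e-07). FKBP5, a co-chaperone of steroid receptors, was at 22.6 and 23.9 CPM with CSN5i-3, against 74.9 and 69.8 CPM with DMSO (-1.64 ± 0.081). TMPRSS2, the surface protease, fell less, at 197 and 192 CPM in the CSN5i-3 libraries and 342 and 349.8 CPM in the DMSO libraries (-0.83 ± 0.058). KLK2, the kallikrein next to KLK3, was at 45.9 and 42.1 CPM with CSN5i-3, against 255 and 253 CPM with DMSO, and since the kallikreins are alike in sequence, their counts may be shared in part. ACP3, prostatic acid phosphatase, was at 24.4 and 24.99 CPM with CSN5i-3, against 61.3 and 56.3 CPM with DMSO. Against the majority ALDH1A3, a retinal dehydrogenase, rose by 0.98 ± 0.072, ELL2, an elongation factor, by 0.53 ± 0.090 and NDRG1 by 0.51 ± 0.062. Of 12 prostate lineage factors tested 11 fell and none rose (median -0.85; 7 lower without CSN5i-3 replicate 2, 1 higher without DMSO replicate 1), with ETV1, the ETS factor rearranged in LNCaP, at 28.1 and 29.4 CPM with CSN5i-3, against 159.6 and 143 CPM with DMSO. HOXB13, a homeobox factor of the posterior body, stood at 303 and 295 CPM with CSN5i-3, against 570.2 and 667 CPM with DMSO.

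Of 16 steroid enzymes tested 9 fell and 4 rose (2 higher without CSN5i-3 replicate 2). UGT2B17 and UGT2B15, which glucuronidate androgens and are repressed by them, both fell (-1.74 ± 0.079 and -1.49 ± 0.087); they are close copies of each other, so their counts may be split. CYP11A1, the first enzyme of steroid synthesis, fell to 0.131 and 0.237 CPM, against 3.28 and 3.27 CPM with DMSO. Luminal surface markers fell, while of the 3 luminal keratins KRT8 and KRT18 rose and KRT19, at a low level, fell by 1.47 ± 0.24 on the log2 scale. FOLH1, prostate-specific membrane antigen, was at 419 and 435 CPM with CSN5i-3, against 1019 and 952 CPM with DMSO (-1.21 ± 0.060). SLC45A3, also called prostein, was at 44.5 and 41.4 CPM with CSN5i-3, against 199 and 229.7 CPM with DMSO (-2.32 ± 0.091). KRT8 was at 1019 and 956 CPM with CSN5i-3, against 355 and 436 CPM with DMSO (1.32 ± 0.099). KRT18, its partner, stood at 821 and 808 CPM with CSN5i-3, against 465 and 506 CPM with DMSO (0.75 ± 0.061). Of the 10 luminal markers 8 fell and 2 rose, and all 10 had counts in every library.

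Junction and stress epithelial genes rose next to them. Of 20 epithelial adhesion genes 9 rose and 2 fell. CLDN4, a tight junction claudin, was at 956 and 904 CPM with CSN5i-3, against 183 and 234 CPM with DMSO (2.16 ± 0.11), OCLN at 190.4 and 198 CPM with CSN5i-3, against 66.3 and 57.5 CPM with DMSO (1.65 ± 0.085). CDH1, E-cadherin, was at 937 and 963 CPM with CSN5i-3, against 517 and 479.9 CPM with DMSO (0.93 ± 0.060). KRT80, a keratin of stratifying epithelia, was at 204 and 203 CPM with CSN5i-3, against 3.58 and 4.96 CPM with DMSO (5.57 ± 0.14). LAMB3, a chain of laminin-332, stood at 15.4 and 14.4 CPM with CSN5i-3, against 0.534 and 0.358 CPM with DMSO (5.06 ± 0.18). Of 15 basal and stress keratin genes 8 could be tested, and 5 rose and 1, KRT14, was called lower (none without CSN5i-3 replicate 2). The median over these 8 was 3.15, or 2.54 with genes at 0 counts in DMSO set to their bound. KRT15 had 18 and 25 counts with CSN5i-3 against 0 and 0 with DMSO, at least 14.5-fold higher against a floor of 3 counts over the DMSO pair, a bound that covers counting error only. TP63 and KRT5, the defining basal markers, had no row in the table.

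Markers of leukocytes, fibroblasts, mesenchymal and neuroendocrine cells were looked up, and the part of those that moved in the other results was not tested. Of 10 leukocyte markers 5 were listed and 3 tested, all 3 higher, with a summed level of 25.6 to 26.3 CPM with CSN5i-3 and 0.508 to 0.596 CPM with DMSO, and nearly all of the level with CSN5i-3 was CD68. CD68, a lysosomal glycoprotein abundant in macrophages, had 956 and 1039 counts with CSN5i-3 against 11 and 15 with DMSO, 6.26 ± 0.15 on the log2 scale. The other 2 were near the limit of detection, CD14 with 10 and 11 counts against 0 and 0 (at least 7.07-fold higher) and ITGAM with 31 and 26 counts against 3 and 0, a ratio of 19.2 (95% counting interval 6.24 to 95.8). The pan-leukocyte marker PTPRC and the T cell marker CD3E had no row, and LYZ had 3 and 1 counts with CSN5i-3 and 3 and 5 with DMSO. Of 10 fibroblast markers 4 were tested and 2 rose (1 lower without DMSO replicate 1), ACTA2, smooth muscle actin, at 65.5 and 63.9 CPM with CSN5i-3, against 10.4 and 10.1 CPM with DMSO (2.65 ± 0.080). The summed level of the list was 74.7 to 76.1 CPM with CSN5i-3 and 17.03 to 18.2 CPM with DMSO, and COL1A2, DCN, PDGFRA, THY1 and POSTN had no row. Of 14 mesenchymal genes 7 were tested, 2 rose and 4 fell (1 lower without either CSN5i-3 library), with VIM, vimentin, at 22.6 and 21.9 CPM with CSN5i-3, against 3.08 and 3.48 CPM with DMSO. FN1, fibronectin, was at 75.8 and 76.2 CPM with CSN5i-3, against 171 and 162 CPM with DMSO. Of 13 neuroendocrine markers 5 were tested and 2 fell, and CHGA and CHGB had no row.

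**Figure D4:**
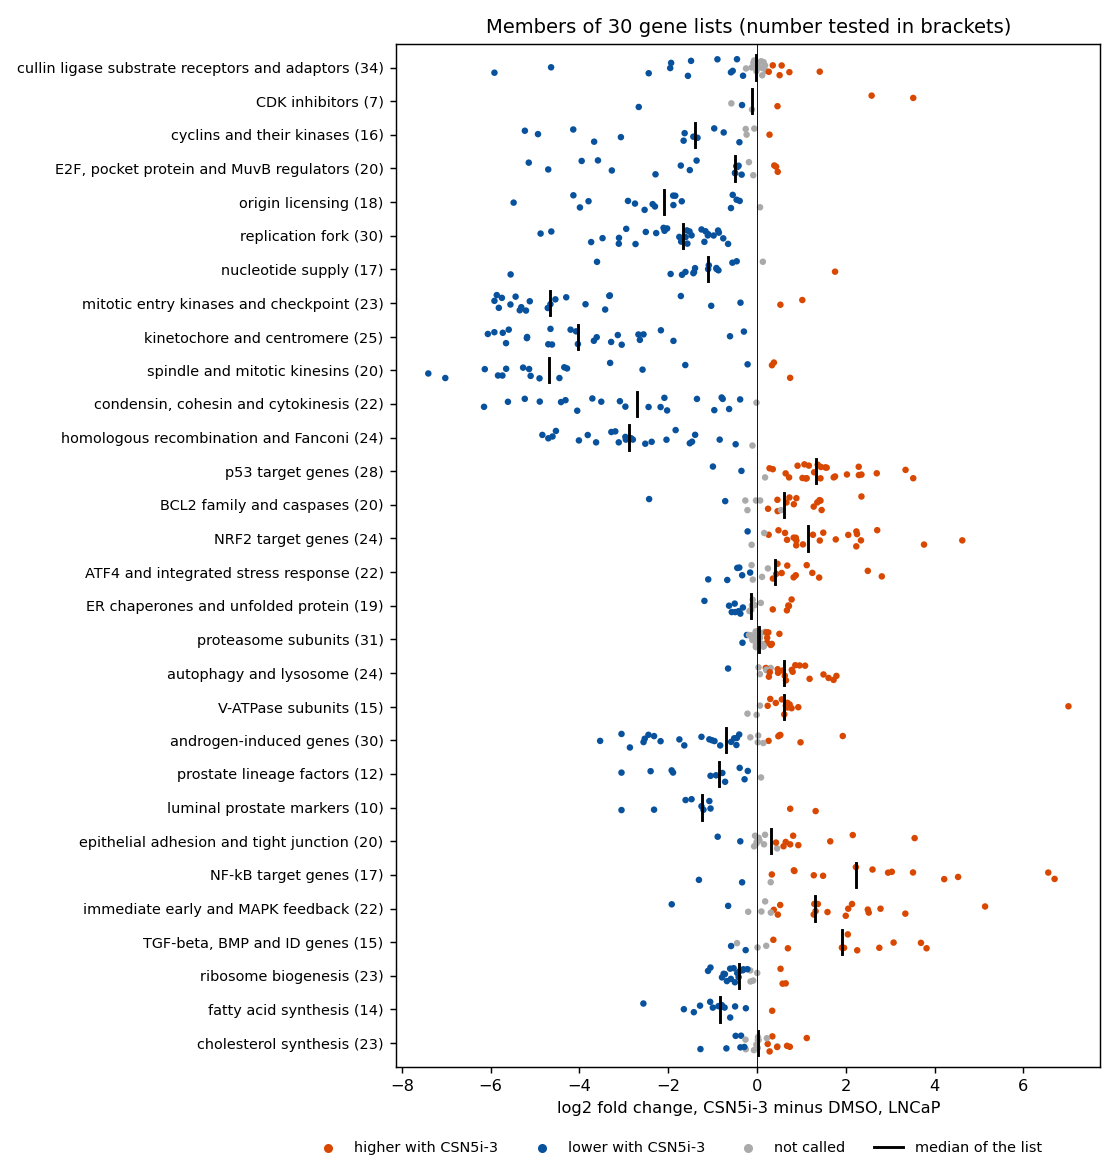
Each point is a gene of 1 of 30 lists, placed by its log2 fold change (CSN5i-3 minus DMSO) and coloured by its call, with the list's median as a black bar and the number tested in brackets. Cell cycle and repair lists spread to -7.41, p53 and NRF2 lists lie mostly above 0, and proteasome subunits cluster at a median of 0.05. The V-ATPase point at 7.02 is ATP6V0D2, which had 0 counts in DMSO, so its place depends on the fit.

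Inflammatory and immediate early genes rose. Of 17 NF-kB target genes tested 14 rose and 2 fell (median 2.23; 1 lower without CSN5i-3 replicate 1), IL32, a proinflammatory cytokine, at 55.4 and 56.4 CPM with CSN5i-3, against 2.999 and 3.01 CPM with DMSO (4.22 ± 0.092). BIRC3, an inhibitor of apoptosis, stood at 24.1 and 24.02 CPM with CSN5i-3, against 3.08 and 2.79 CPM with DMSO (3.04 ± 0.11). TNFSF15, a TNF family ligand, was at 176 and 187 CPM with CSN5i-3, against 41.5 and 36.01 CPM with DMSO. IRF1, a transcription factor, was at 43.6 and 44.8 CPM with CSN5i-3, against 5.998 and 5.41 CPM with DMSO. NFKB1, which encodes p50, was called lower (-0.34), a call lost without CSN5i-3 replicate 1 (adjusted p = 0.144), and CD83, a surface glycoprotein of dendritic cells, changed by -1.31 ± 0.21. Of 20 interferon-stimulated genes 8 rose and 2 fell (median 0.17), so that about as many were called as among all genes, with IFI27 at 6.67 and 5.57 CPM with CSN5i-3, against 0.254 and 0.262 CPM with DMSO and OAS3, which senses double-stranded RNA, at -2.79 ± 0.10. Of 22 immediate early and MAPK feedback genes 16 rose and 2 fell (median 1.31). DUSP5, a nuclear phosphatase of ERK, was at 97.1 and 98.2 CPM with CSN5i-3, against 2.796 and 2.74 CPM with DMSO (5.14 ± 0.090). DUSP1, a phosphatase of p38 and JNK, stood at 167 and 164 CPM with CSN5i-3, against 24.2 and 23.9 CPM with DMSO (2.78 ± 0.070). SPRY2, a feedback inhibitor of receptor tyrosine kinases, changed by -1.92 ± 0.25. Of 15 TGF-beta, BMP and ID genes tested 10 rose and 2 fell (median 1.91; 1 lower without either CSN5i-3 library), ID1, ID2 and ID3, which block helix-loop-helix factors, by 2.76 ± 0.17, 3.08 ± 0.082 and 2.26 ± 0.13. Of 13 YAP and TEAD targets 8 rose and 3 fell (5 higher without CSN5i-3 replicate 2), CCN1, a matrix protein, at 49.2 and 47.96 CPM with CSN5i-3, against 6.74 and 6.63 CPM with DMSO, while WWTR1, which encodes TAZ, changed by -1.89 ± 0.25. None of 10 Wnt target genes rose and 4 fell (1 lower without CSN5i-3 replicate 2, 1 higher without DMSO replicate 1). Of 19 growth factor genes 10 rose and 4 fell: EDN1, endothelin, was at 14.4 and 12.9 CPM with CSN5i-3, against 0.152 and 0.119 CPM with DMSO (6.62 ± 0.20), HBEGF, a ligand of the EGF receptor, at 60.7 and 63.6 CPM with CSN5i-3, against 11.4 and 11.6 CPM with DMSO. IGFBP2, which binds insulin-like growth factors, was at 50.2 and 50.6 CPM with CSN5i-3, against 93.5 and 127 CPM with DMSO.

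Ribosome biogenesis and fatty acid synthesis genes fell for the most part. MYC, the growth regulator, was at 103 and 102 CPM with CSN5i-3, against 269 and 317 CPM with DMSO (-1.51 ± 0.088). MXD1, an antagonist that competes for MAX, rose to 22.6 and 24.1 CPM, against 7.65 and 7.32 CPM with DMSO (1.64 ± 0.094). Of the 11 MYC and MXD network genes tested 3 were called higher, 2 lower and 6 not called (median -0.14), a smaller share called than among all genes. Of 23 ribosome biogenesis genes 16 fell and 3 rose (median -0.42), NOP56, a part of the methylation complex of ribosomal RNA, at -1.10 ± 0.062 and NCL, nucleolin, at -0.79 ± 0.058. Of 34 cytosolic ribosomal protein genes 7 were called higher and 4 lower (median 0.09), which became 3 and 0 without either CSN5i-3 library, 14 and 8 without DMSO replicate 1, 15 and 8 without DMSO replicate 2, and 3 and 9 on library totals. Of 14 fatty acid synthesis genes 13 fell (median -0.83), with FADS2, a desaturase, at 244 and 235 CPM with CSN5i-3, against 733 and 769 CPM with DMSO (-1.65 ± 0.059) and ACACA, which makes malonyl-CoA, at -0.79 ± 0.059; the 1 call upward, ACSS2 at 0.34, was lost without either CSN5i-3 library (adjusted p = 0.0756 and 0.0803). Of 23 cholesterol synthesis genes 7 rose and 6 fell (median 0.02; 4 and 3 without CSN5i-3 replicate 2, 4 higher without CSN5i-3 replicate 1, 11 higher without DMSO replicate 2). Of 22 hypoxia and glycolysis genes 11 fell and 6 rose: LDHA, lactate dehydrogenase, was at 241 and 248 CPM with CSN5i-3, against 694 and 639 CPM with DMSO (-1.45 ± 0.064), but EGLN3, the oxygen-sensing prolyl hydroxylase, was at 89.2 and 84.4 CPM with CSN5i-3, against 14.4 and 13.5 CPM with DMSO (2.64 ± 0.083). VEGFA, the vascular growth factor, stood at 521 and 518 CPM with CSN5i-3, against 192 and 197 CPM with DMSO. Of 26 nuclear respiratory chain genes 10 fell and 2 rose (median -0.12; 1 and 6 higher and lower without CSN5i-3 replicate 1, 1 higher without CSN5i-3 replicate 2, 5 higher without either DMSO library), whereas 12 of the 13 protein genes of the mitochondrial genome rose and none fell (median 0.66), MT-ND2 most of all, at 8027 and 8179 CPM with CSN5i-3, against 3216 and 3015 CPM with DMSO.

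The largest increases came mostly from outside the lists. Under the naming rule they were EDN1, KRT75, CD68, NEURL3, GPR115, LURAP1L, KRT80, DUSP5, LAMB3, DIO3, CLU, STOM, HSPB8, MYL9 and MUC20, with changes from 4.46 to 6.62. C8orf4, now named TCIM, was passed over for its form of name and exceeded them all, with 61.3 and 63.05 CPM with CSN5i-3 against 0.483 and 0.572 CPM with DMSO (6.87 ± 0.12). CLU, the secreted chaperone clusterin, was at 673 and 692 CPM with CSN5i-3, against 20.1 and 22.8 CPM with DMSO (4.99 ± 0.085). KRT75, a hair follicle keratin, was at 31.2 and 26.9 CPM with CSN5i-3, against 0.254 and 0.334 CPM with DMSO. DIO3, which inactivates thyroid hormone, was at 61.1 and 56.1 CPM with CSN5i-3, against 1.499 and 2.12 CPM with DMSO. HSPB8, a small heat shock protein that works with BAG3, was at 52.7 and 52.3 CPM with CSN5i-3, against 1.91 and 1.88 CPM with DMSO. MYL9, a myosin light chain, stood at 70.5 and 67.8 CPM with CSN5i-3, against 2.95 and 3.08 CPM with DMSO. By level, MYH9, non-muscle myosin, rose to 2364 and 2319 CPM, against 509.8 and 615 CPM with DMSO, and ACTB, beta-actin, to 5138 and 5068 CPM, against 2452 and 2781 CPM with DMSO. On the other side PEG3, an imprinted zinc finger gene, had 35.8 and 39.5 CPM in the CSN5i-3 libraries and 739.6 and 669.6 CPM in the DMSO libraries, and PTMA, prothymosin, changed by -1.72 ± 0.056.

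The same line was also studied with an shRNA against CSN5. The shRNA experiment has its own controls and was deposited in another table, so a difference between the experiments and a difference in their making cannot be told apart. In a joint fit of 17846 genes the effect of CSN5i-3 and the effect of shCSN5 differed for 3803 genes (21.3%), 1218 (6.83%) with a more positive change under CSN5i-3 and 2585 (14.5%) with a more negative one. That count was 1501 and 1666 without CSN5i-3 replicate 1 or 2, 1983 and 2292 without DMSO replicate 1 or 2, 1503 and 1582 without scramble replicate 1 or 2, and 7862 without shCSN5 replicate 2. The split by direction was less uneven elsewhere, with 1405 more positive and 2173 more negative differences under median-ratio size factors. With DESeq2 they were 1240 and 1843. In the main joint fit 19.3% of the genes were called higher and 21.8% lower with CSN5i-3, and 23.0% were called higher and 16.7% lower with shCSN5. Of the genes called higher with CSN5i-3 in that fit 51.4% were also higher with shCSN5, which is 43.0% of those higher with shCSN5, and of the genes called lower with CSN5i-3 44.6% were also lower with shCSN5, which is 58.3% of those lower with shCSN5. Differences below are the CSN5i-3 effect minus the shCSN5 effect. Of 23 mitotic entry genes 13 had a more negative change with CSN5i-3 and 1 a more positive one, with medians of -4.67 with CSN5i-3 and -3.13 with shCSN5. KIF20A changed by -7.42 ± 0.18 with CSN5i-3 and -3.78 ± 0.14 with shCSN5, a difference of -3.64 ± 0.23 (adjusted p = 1.0e-04). For 30 replication fork genes the medians were -1.67 with CSN5i-3 and -1.84 with shCSN5, with 6 differences negative and 1 positive. The p53 target genes had medians of 1.31 with CSN5i-3 and 1.08 with shCSN5 and 9 of 28 differing. CDKN1A changed by 3.50 ± 0.10 with CSN5i-3 and 2.66 ± 0.096 with shCSN5 (difference 0.84 ± 0.13, adjusted p = 0.0033), while for MDM2 the values were 1.43 ± 0.13 with CSN5i-3 and 0.9995 ± 0.13 with shCSN5, a difference that was not called (adjusted p = 0.13).

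Larger shares of the androgen-induced, steroid, NRF2 and ATF4 lists differed than of all genes. Of 31 androgen-induced genes 19 had a more negative change with CSN5i-3 and 4 a more positive one, against a background of 14.5% and 6.83%, with medians of -0.84 with CSN5i-3 and -0.01 with shCSN5. KLK3 changed by -2.88 ± 0.081 with CSN5i-3 and -0.21 ± 0.076 with shCSN5 (difference -2.67 ± 0.11, adjusted p = 2.9e-05). Of 18 steroid enzymes 14 had a more negative change with CSN5i-3 and 2 a more positive one. UGT2B17, among the 14, changed by -1.75 ± 0.13 with CSN5i-3 and 1.48 ± 0.13 with shCSN5. FOLH1 likewise changed by -1.22 ± 0.12 with CSN5i-3 and 0.50 ± 0.12 with shCSN5. UGT2B17 and FOLH1 had opposite signs in the 2 experiments, and both differences were called. Of 24 NRF2 target genes 13 had a more positive change with CSN5i-3 and 1 a more negative one (medians 1.13 with CSN5i-3 and 0.54 with shCSN5). FTH1 changed by 2.04 ± 0.098 with CSN5i-3 and 0.77 ± 0.095 with shCSN5 (difference 1.27 ± 0.13, adjusted p = 7.5e-04), while TXNRD1 stood at 2.22 ± 0.12 with CSN5i-3 and 2.07 ± 0.12 with shCSN5 and its difference was not called (adjusted p = 0.58). Of 22 ATF4 target genes 10 had a more positive change with CSN5i-3 and 1 a more negative one (medians 0.38 with CSN5i-3 and -0.26 with shCSN5). COPS5 itself was at 3.04 and 1.82 CPM with shCSN5, against 52.3 and 51.4 CPM with scramble (difference 4.51 ± 0.26, adjusted p = 6.2e-05).

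In 22Rv1 at the same 5 µM of CSN5i-3 the fall of mitotic genes was shallower. Line and experiment cannot be told apart in this comparison either. Of 18544 genes 2887 (15.6%) differed between the lines, 1033 (5.57%) with a more positive change in LNCaP and 1854 (10%) with a more negative one. That count was 1273 and 1234 without LNCaP CSN5i-3 replicate 1 or 2, 1455 and 1596 without LNCaP DMSO replicate 1 or 2, and 1664 without 22Rv1 DMSO replicate 2. In that fit 18.8% of the genes were called higher and 19.1% lower in LNCaP, and 17% were called higher and 13% lower in 22Rv1. Genes called higher in LNCaP were higher in 22Rv1 in 43.2% of cases, which is 47.6% of those of 22Rv1, and genes called lower in LNCaP were lower in 22Rv1 in 42.3%, which is 62.1% of those of 22Rv1. Of 23 mitotic entry genes 17 had a more negative change in LNCaP and 1 a more positive one, and medians were -4.63 in LNCaP and -1.58 in 22Rv1. For 24 kinetochore genes 18 were more negative in LNCaP and 1 more positive (medians -4.04 in LNCaP and -1.72 in 22Rv1), and for 20 spindle genes 16 and none (medians -4.65 in LNCaP and -1.30 in 22Rv1). CDC20 changed by -5.89 ± 0.19 in LNCaP and -1.92 ± 0.15 in 22Rv1 (difference -3.98 ± 0.23, adjusted p = 9.1e-05). Origin licensing genes lay closer, with medians of -2.07 in LNCaP and -1.90 in 22Rv1 and 6 of 18 differing. Of 10 luminal markers 5 had a more negative change in LNCaP and none a more positive one. KLK3 fell in LNCaP (-2.84 ± 0.12) and had 0.71 ± 0.11 in 22Rv1, a difference of -3.55 ± 0.16 (adjusted p = 5.8e-05). CDKN1A changed by 3.54 ± 0.14 in LNCaP and 3.17 ± 0.14 in 22Rv1, a difference of 0.37 ± 0.18 that was not called (adjusted p = 0.23). Of 19 endoplasmic reticulum chaperone genes 10 had a more positive change in LNCaP and none a more negative one (medians -0.11 in LNCaP and -0.59 in 22Rv1), with HSPA5 at 0.69 ± 0.078 in LNCaP and -1.08 ± 0.079 in 22Rv1. Of 25 NRF2 target genes 10 had a more positive and 2 a more negative change (medians 1.06 in LNCaP and 0.25 in 22Rv1), and FTH1 was at 2.08 ± 0.073 in LNCaP and 0.18 ± 0.070 in 22Rv1. MDM2 changed by 1.46 ± 0.10 in LNCaP and 0.32 ± 0.10 in 22Rv1 (adjusted p of the difference = 0.0022), whereas GDF15 changed by 2.72 ± 0.41 in LNCaP and 5.16 ± 0.47 in 22Rv1 (adjusted p = 0.026). IL32 changed by 4.24 ± 0.20 in LNCaP and 4.20 ± 0.71 in 22Rv1, and its difference of 0.03 was not called (adjusted p = 0.95).

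**Figure D5:**
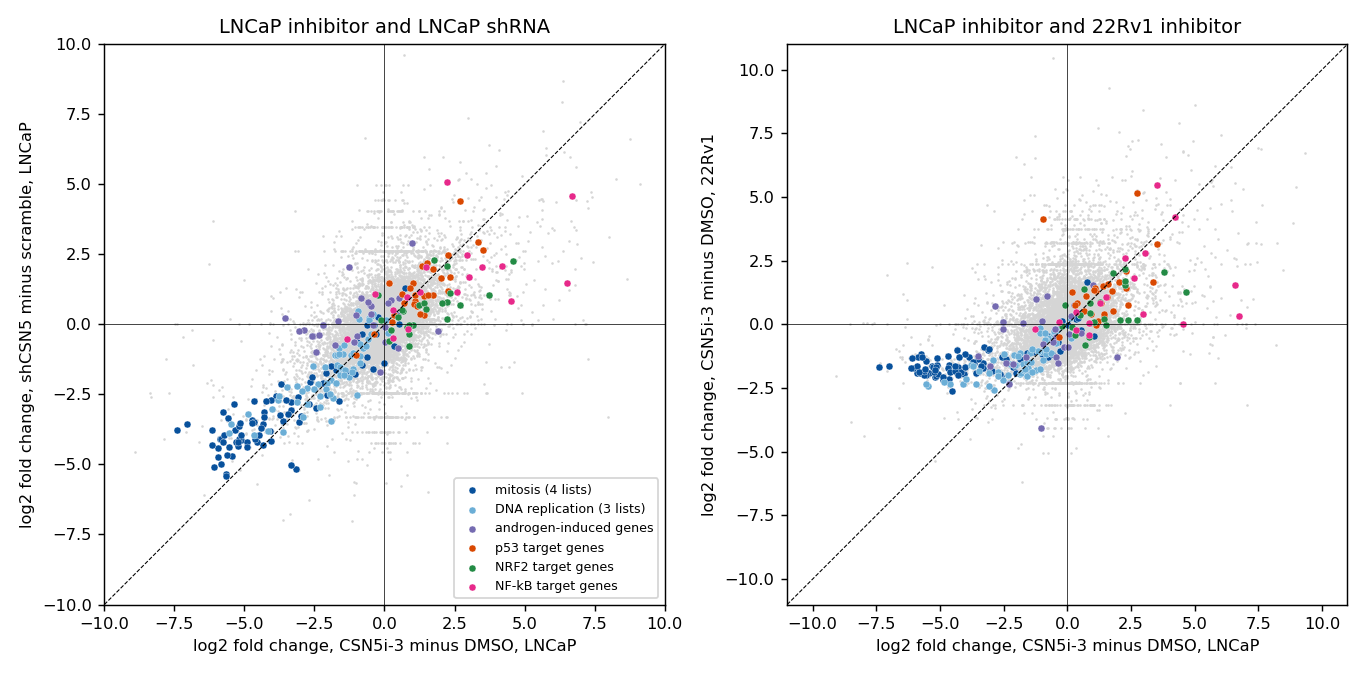
Log2 fold changes of LNCaP with CSN5i-3 (x axis) against those of LNCaP with shCSN5 (left) or 22Rv1 with CSN5i-3 (right), from the joint fits, with 1 point per gene and a dashed line of equal change. Mitosis genes such as KIF20A, at -7.42 on the x axis and -3.78 on the y axis at left, lie above the dashed line where they fell furthest, and at right they run nearly flat, while many androgen-induced genes lie left of the dashed line.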

How the data were processed

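Total RNA of LNCaP cells with CSN5i-3 (5 µM) or DMSO, 2 libraries each, was sequenced on libraries made with standard Illumina steps, per the labels' protocols. The authors deposited whole-number counts per gene symbol, and per the submitters' processing notes and series text Partek was used; the sources used here do not give the aligner, genome build, annotation and strand setting. The deposited counts were tested with edgeR 4.0.16 (R 4.3.3), with TMM scaling, a minimum count of 10 in filterByExpr, the quasi-likelihood F test and Benjamini-Hochberg adjustment over all 18238 genes. CPM use the scaled library totals, the SE of a log2 fold change is its size over the square root of F, and the fit has 2 residual degrees of freedom. Symbols were matched to current names through RefSeq tables (78.6% matched), and 21 symbols had been turned into dates and were left unnamed. Joint fits with the LNCaP shRNA table and the 22Rv1 table used the 20863 symbols that all tables share, with the difference of effects as the tested term. The fit was tested on simulated counts over 17871 genes for the CSN5i-3 comparison. It recovered 56% of genes changed 1.5-fold, 76% at 2-fold, 98.0% at 4-fold and 100% at 8-fold. Only 50 genes were changed at each fold (49 at 4-fold), with a common spread between libraries. These shares are therefore not the recovery in the data, where far more genes were called. Fold bounds use a floor of 3 counts over the DMSO pair, and counting intervals are exact at 95% and cover counting error only. Alternatives were DESeq2 1.42.0, median-ratio size factors, library totals, no filter, single libraries left out, and the replicate number as a block. The members and gene lists were chosen with earlier results of these data known. Named genes are the COP9 subunits, the 15 largest increases and decreases by fold among called genes of at least 5 CPM with groups apart (passing over clone-based and uncharacterised names), the 10 largest rises and drops in CPM, up to 4 higher and 4 lower members per list by adjusted p with called members against the majority, 18 genes named whatever they did, and the 8 largest differences each way in the joint fits. C8orf4, GCLM, CHAC1, KRT15, LYZ, ORC4, CCNG1, RHOBTB3, KRT19, ATP6V0D2 and markers without a row fall outside it and were named after their values were seen, and some genes under the rule are not reported here. Libraries of PC3 and C4-2 and the 22Rv1 shRNA libraries were not used here.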

Additional observations from a re-analysis of the deposited data

Results flagged for a closer look

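Several results differ between experiments by a test of the difference itself, with edgeR's quasi-likelihood test on the joint fits and Benjamini-Hochberg adjustment. Between CSN5i-3 and shCSN5 in LNCaP 3803 genes differed, and between LNCaP and 22Rv1 with CSN5i-3 2887 did. The values below are differences of log2 fold changes, CSN5i-3 minus shCSN5 effect or LNCaP minus 22Rv1 effect.

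Against shCSN5 the 8 most negative differences were PLA2G2A (-4.50), a secreted phospholipase, TRGC1 (-4.24), a T cell receptor gamma constant gene at the locus that also gives the prostate transcript TARP, CRYM (-4.17), which binds thyroid hormone, RDH10 (-4.03), a retinol dehydrogenase, DDIT4L (-3.97), FAM83D (-3.96), a spindle protein, HPGD (-3.76), which breaks down prostaglandins, and KIF20A (-3.64). HPGD changed by -3.55 ± 0.27 with CSN5i-3 and 0.21 ± 0.18 with shCSN5. The 8 most positive were KRT75 (5.37), CD68 (5.37), COPS5 (4.51), the shRNA's own target, DHRS2 (4.03), a short-chain dehydrogenase, MYL9 (3.71), LAMB3 (3.59), ZNF292 (3.59) and FLNA (3.44), which crosslinks actin. CD68 changed by 6.25 ± 0.26 with CSN5i-3 and 0.88 ± 0.42 with shCSN5. FLNA stood at 2.82 ± 0.34 with CSN5i-3 and -0.62 ± 0.32 with shCSN5. Control levels of the experiments lay far apart for some of these genes. In the joint fit DHRS2 was at 2.49 and 2.37 CPM under DMSO but 37.5 and 40.1 under scramble. Its treated levels were close, 1.77 and 1.96 (CSN5i-3) beside 1.77 and 1.89 (shCSN5). LAMB3 had 0.539 and 0.37 CPM (DMSO) beside 10.4 and 9.67 (scramble), then 15.6 and 14.5 (CSN5i-3) and 23.1 and 31.8 (shCSN5). For RDH10 and ZNF292 the controls were close. How far baselines shaped these differences was not tested.

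Against 22Rv1 the most negative differences were PLA2G2A (-5.91), KIF20A (-5.73), PKNOX2 (-5.67), TM4SF1 (-5.58), REG4 (-5.40), MALL (-5.37), DLGAP5 (-5.37) and MAPK4 (-5.36). KIF20A changed by -7.39 ± 0.19 in LNCaP and -1.66 ± 0.12 in 22Rv1, and TM4SF1, a surface protein of epithelial cells, by -0.91 ± 0.13 in LNCaP and 4.67 ± 0.20 in 22Rv1. The most positive were KRT7 (6.37), a simple epithelial keratin, FAM171B (4.90), TIMP1 (4.83), an inhibitor of metalloproteinases, PAK6 (4.63), MUC20 (4.43), NOS3 (4.40), EDN1 (4.33) and TNC (4.33), tenascin. EDN1 changed by 6.64 ± 0.19 in LNCaP and 2.31 ± 0.12 in 22Rv1. In several of these 1 arm was close to 0, where a fitted difference depends on the prior count and is no bound. PLA2G2A and PKNOX2 were at 0 in both 22Rv1 DMSO libraries, while PLA2G2A had 8.96 and 9.47 CPM in LNCaP with CSN5i-3, against 32.6 and 30.5 CPM with DMSO. KRT7, FAM171B and TIMP1 were at 0 in 1 LNCaP DMSO library and near 0 in the other, and TIMP1 had 128 and 77.8 CPM with CSN5i-3 in 22Rv1, against 47.1 and 62.9 CPM with DMSO. REG4 and MAPK4 stayed under 1 CPM in LNCaP and reached 191 and 207 CPM for REG4 with CSN5i-3 in 22Rv1, against 7.01 and 5.65 CPM with DMSO. The difference of PKNOX2 lost its call without either 22Rv1 DMSO library, either LNCaP DMSO library, 22Rv1 CSN5i-3 replicate 2 or LNCaP CSN5i-3 replicate 2, and that of TIMP1 without either LNCaP DMSO library.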

How the results depend on the processing

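The count of 9598 called genes became 8019 with DESeq2, 9582 with median-ratio size factors, 9671 with no low-count filter and 9779 with library totals, and 6360 to 11468 with single libraries left out. In those fits the lone library of a group is assumed to vary like the other group. Library totals shifted the median of all genes to -0.10 from 0.004 under TMM and called 3893 genes higher and 5886 lower, so small changes upward are read relative to that shift. Replicate numbers were not treated as pairs, since deviations of same-numbered libraries had a correlation of -0.10 over all genes and -0.47 over 11469 genes of at least 5 CPM. With the replicate block 9237 genes were called, and with the crossed pairing, added after seeing the data, 11119. At 2-fold the 3443 genes became 2987 to 3725 over all alternatives. The 3803 differences from shCSN5 became 3083 with DESeq2, 3578 with median-ratio size factors, 4172 with library totals, 2810 with the replicate block, and 1501 to 7862 with single libraries left out. The 2887 differences from 22Rv1 became 2192 with DESeq2, 2453 with median-ratio size factors, 3041 with library totals, 815 with the replicate block, and 1234 to 3471 with single libraries left out; the cause was not tested. COPS5 changed sign with library totals (-8.0e-04), and COPS9 with library totals (-0.041) and without CSN5i-3 replicate 1 (range without single libraries -0.019 to 0.13); neither was called. Without DMSO replicate 2 the medians of the CDK inhibitors (range -0.29 to 0.088 without single libraries) and of the MYC and MXD network (-0.17 to 0.087) changed sign. Of the values of named genes under the alternatives 3930 kept direction and side of the threshold, 179 lost the call, 12 gained one and 3 changed sign. In simulation with 2 libraries a group 56% of genes changed 1.5-fold were recovered. Far fewer genes were changed there than were called here, and all shared a common spread between libraries. That share is therefore not the recovery in these data, and genes not called are not shown to be unchanged.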

Other observations

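Gene groups outside the sections above also moved. Of 16 tubulin and microtubule genes 10 fell and 4 rose (median -0.61). TUBA1B, an alpha-tubulin, was at 527 and 529.5 CPM with CSN5i-3, against 2217 and 2187 CPM with DMSO, and STMN1, which destabilises microtubules, changed by -3.38 ± 0.086. TUBB3, the neuronal beta-tubulin, rose instead, to 119.9 and 106 CPM, against 20.1 and 30.1 CPM with DMSO (2.17 ± 0.18). Tubulin genes are alike in sequence, so their counts may be shared. Of 14 lamin, HMGB and senescence-linked genes 7 fell and 5 rose (median -0.48). LMNB1, lamin B1, was at 7.71 and 7.51 CPM with CSN5i-3, against 101 and 95.02 CPM with DMSO, HMGB2, a chromatin protein, changed by -2.99 ± 0.080 and LMNA, lamin A, by 1.23 ± 0.15. Of 8 S100 genes 5 rose and 1, S100A13, was called lower (none without either CSN5i-3 library), with a median of 1.38. S100P was at 1353 and 1315 CPM with CSN5i-3, against 196 and 189.6 CPM with DMSO (2.79 ± 0.057) and S100A10, a partner of annexin, changed by 3.50 ± 0.14. Of 8 metalloproteinase and inhibitor genes 6 rose and 2 fell (median 1.33). Among the 6, MMP12 and TIMP1 passed the count filter through the CSN5i-3 libraries alone and could be called only higher. MMP10, a stromelysin, was at 1.83 and 2.25 CPM with CSN5i-3, against 0.305 and 0.215 CPM with DMSO, and TIMP2 rose by 1.05 ± 0.070. The 2 that fell had the highest mean levels of the 8. MMP16 was at 32.9 and 33.9 CPM with CSN5i-3, against 121 and 112 CPM with DMSO, and MMP15 changed by -0.57 ± 0.11. The summed level of the list was 191 to 194 CPM with CSN5i-3 and 249 to 260 CPM with DMSO. Of 14 polyamine and citrate genes 8 rose and 4 fell (2 higher without either CSN5i-3 library, 2 lower without CSN5i-3 replicate 1). SAT1, which breaks down polyamines, was at 216 and 217 CPM with CSN5i-3, against 93.8 and 88.6 CPM with DMSO (1.25 ± 0.064), and CS, citrate synthase, changed by -0.56 ± 0.058.

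Some genes were at or near 0 counts in DMSO. ATP6V0D2, a V-ATPase subunit of osteoclasts, had 14 and 18 counts with CSN5i-3, against 0 and 0 with DMSO, at least 10.8-fold higher against the floor. MMP12, the macrophage elastase, had 53 and 56 counts with CSN5i-3, against 0 and 1 with DMSO, a ratio of 110.1 with a counting interval of 19.3 to 4388. TNF had 53 and 64 counts with CSN5i-3, against 1 and 0 with DMSO, a ratio of 118 with a counting interval of 20.8 to 4707. These 3 were named after their values were seen.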
